A study of Mus musculus with 12 samples.

Results

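The aldo-keto reductases are a family of enzymes that reduce aldehydes and ketones to alcohols with NADPH, and 9 of their genes were followed in the livers of 12 mice. They are every row of the deposited tables whose gene name is Akr1a1, Akr1b7, Akr1b10, Akr1c6, Akr1c12, Akr1c13, Akr1c14, Akr1c20 or Akr7a5, which is 9 of 57180 rows. All 9 passed the filter on low counts, which kept 19350 genes. RNA was sequenced from 3 females and 3 males of each of the groups named KO and Het. All of these mice lacked Csa, the Cockayne syndrome gene that the annotation lists as Ercc8, and all had received AAV9-CSA, a viral vector that carries the human CSA cDNA under the ubiquitous CBA promoter and was injected into the brain ventricles of newborns. Livers of KO mice were collected when the animals reached the humane endpoint, and Het littermates of the same age served as controls, so genotype and state of health cannot be told apart. The labels and the sequencing methods write Het as Csa-/-;Xpa+/- and KO as Csa-/-;Xpa+/+, whereas elsewhere the study describes the sick mice as lacking both Csa and Xpa. The labels give no age.

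The targeted gene was looked at first because of that conflict. Xpa, a damage-recognition factor of nucleotide excision repair, stood at 3.10, 3.55 and 3.74 normalised counts (CPM, scaled by library size) in the Het females and at 6.34, 5.98 and 5.57 CPM in the Het males. It stood at 1.08, 1.83 and 0.992 CPM in the KO females and at 1.18, 1.14 and 1.25 CPM in the KO males. Every KO liver lay below every Het liver, opposite to what Xpa+/+ would give against Xpa+/-, and the groups are therefore called by their names KO and Het. Ercc8 stood between 5.10 and 8.68 CPM in Het livers and between 14.8 and 33.997 CPM in KO livers. The labelled tissue held, since the 12 hepatocyte markers summed to between 78299 and 155480 CPM in every liver. Total counts per liver ran from 30044812 to 43634073. Each library is a separate mouse, named here by group and number. Among the KO livers, KO_F_108 had the lowest CPM for 6 of the 9 genes (Akr1a1, Akr1c6, Akr1c12, Akr1c13, Akr1c14 and Akr1c20), and results that rest on it are also given without it.

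In liver, the AKR1C enzymes act mainly as hydroxysteroid dehydrogenases, which interconvert keto and hydroxy groups on androgens, oestrogens, progestins and bile acid precursors. The AKR1B enzymes resemble aldose reductase and clear sugars, retinal and the aldehydes that lipid peroxidation leaves. AKR1A1 is the general aldehyde reductase, which in the mouse also makes gulonate on the way to ascorbate, and AKR7A5 reduces succinic semialdehyde and dialdehydes such as those of aflatoxin. Several genes of the family are known targets of NRF2, of bile acid and xenobiotic receptors, or of sex-dependent growth hormone signalling.

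The Akr1c genes lie side by side on mouse chromosome 13 (GRCm39), where 8 of them span 537.5 kb, and the Akr1b genes form a second cluster of 4 genes over 121.1 kb on chromosome 6. In the first cluster Akr1c14 lies at chr13:4099002-4141081, Akr1c13 at chr13:4241149-4255602, Akr1c12 at chr13:4318168-4329432, Akr1c6 at chr13:4484305-4507876 and Akr1c20 at chr13:4536842-4573354. Akr1b10 lies at chr6:34361153-34374663 and Akr1b7 at chr6:34389021-34400449. Akr1a1 at chr4:116493703-116516804 and Akr7a5 at chr4:139038021-139046813 are both on chromosome 4, far apart. The 9 genes are protein coding, with 9 exons in Akr1a1 and each Akr1c gene, 10 in each of these Akr1b genes and 7 in Akr7a5.

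Reads of such close copies could be shared between genes, so the coding sequences were compared. Over the 969 coding bases of Akr1c12 and Akr1c13, 37 differed (96.2% identical). Akr1c6 and Akr1c20 differed at 75 of 969 bases (92.3% identical), and Akr1b7 and Akr1b10 at 102 of 948 (89.2% identical). Every other pair was below 77%, the closest being Akr1c6 and Akr1c14 at 76.4%. The 60-base stretch of each pair that holds the most differences shows what separates the copies, with differing bases in capitals and positions counted from the first base of the start codon. The sequences are exonic and come from the GENCODE M39 transcripts. Akr1c12 and Akr1c13 differ at 9 bases in positions 361 to 420, Akr1c6 and Akr1c20 at 10 in positions 661 to 720, and Akr1b7 and Akr1b10 at 15 in positions 361 to 420.
Akr1c12: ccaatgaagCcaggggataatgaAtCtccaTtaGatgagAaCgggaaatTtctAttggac
Akr1c13: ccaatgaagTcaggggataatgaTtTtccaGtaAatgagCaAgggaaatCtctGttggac
Akr1c6: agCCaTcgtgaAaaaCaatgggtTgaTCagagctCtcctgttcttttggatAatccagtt
Akr1c20: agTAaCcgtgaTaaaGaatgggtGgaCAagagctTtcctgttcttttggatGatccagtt
Akr1b7: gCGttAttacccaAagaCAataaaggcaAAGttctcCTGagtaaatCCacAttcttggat
Akr1b10: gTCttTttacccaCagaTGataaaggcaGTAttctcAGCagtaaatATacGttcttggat

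Among all windows of 150 bases along the transcripts, 79 of 1119 windows of Akr1c12 (7.06%) and 79 of 1120 windows of Akr1c13 (7.05%) were identical in both genes. No such window of the other 7 genes occurred in another gene. The split of reads between Akr1c12 and Akr1c13 is therefore uncertain within those windows, and their sum is given below as well. Akr1a1, Akr1b10, Akr1b7 and Akr7a5 overlap a gene on the opposite strand, and Akr1c14 overlaps Gm18857 on its own strand. The libraries were stranded.

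**Figure D1:**
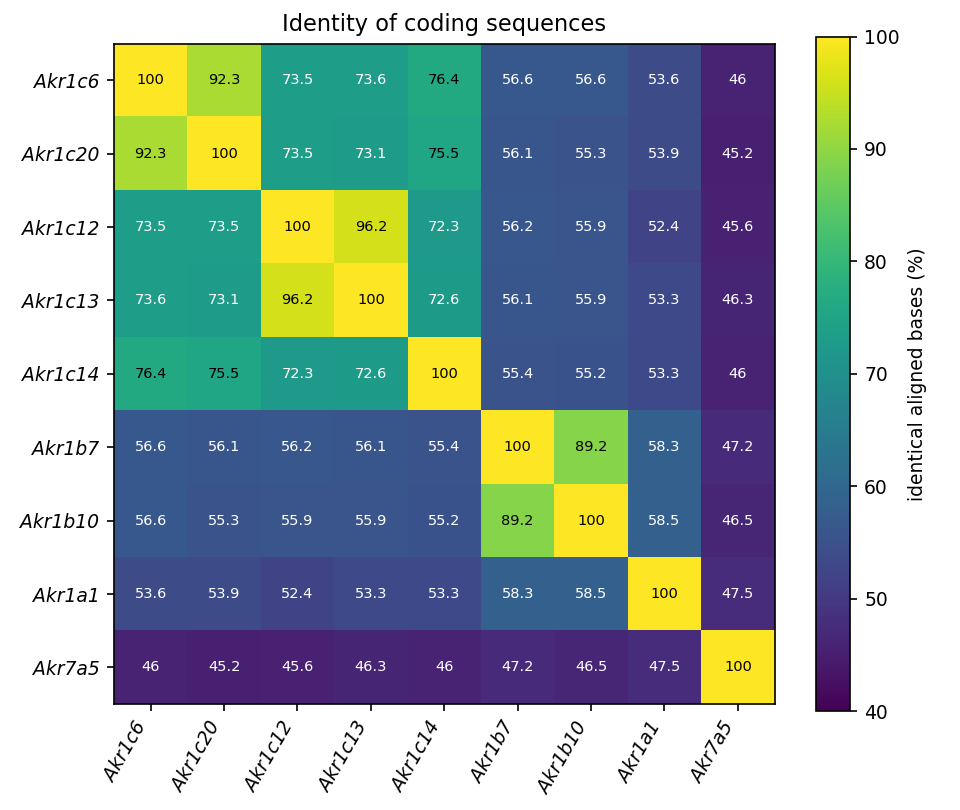
Percent of identical bases in global alignments of the coding sequences of the 9 genes (GENCODE M39), one cell per pair, colour and number giving the same value. Akr1c12 and Akr1c13 (96.2%), Akr1c6 and Akr1c20 (92.3%) and Akr1b7 and Akr1b10 (89.2%) stand out as pairs.

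Levels between genes were compared per length, in the deposited TPM (transcript abundance scaled to one total per liver). Rn7s1 alone held between 29.65% and 39.97% of the TPM of a liver, so the TPM of every other gene is lowered by that share. In the 6 Het livers Akr1c6, a 17beta-hydroxysteroid dehydrogenase of the liver, was highest at 389 ± 45.2 TPM (SD, n = 6). Akr1a1 followed at 132 ± 9.09 TPM, and the ranges of these genes did not overlap. Akr1c14 (92.2 ± 22.7 TPM), Akr7a5 (57.8 ± 11.3 TPM), Akr1c13 (40.9 ± 4.60 TPM), Akr1c20 (34.7 ± 10.2 TPM) and Akr1c12 (27.8 ± 4.06 TPM) came next. In that order, from Akr1a1 down to Akr1c12, each gene's range overlapped that of its neighbour. Akr1b10 (0.927 ± 0.383 TPM) and Akr1b7 (0.348 ± 0.380 TPM) were far lower, and their ranges overlapped.

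In the 6 KO livers Akr1c6 was still the first by mean, at 143 ± 66.4 TPM, but its range now overlapped that of Akr1a1 (119.1 ± 10.8 TPM). Akr7a5 (55.1 ± 4.40 TPM), Akr1c14 (47.5 ± 15.1 TPM), Akr1c20 (28.8 ± 11.6 TPM) and Akr1c13 (26.5 ± 4.07 TPM) followed, each with a range that overlapped that of the next, so that their order by mean is not settled. Akr1c12 (16.8 ± 2.22 TPM) lay below Akr1c13 with no overlap. Akr1b7 (4.56 ± 1.503 TPM) stood above Akr1b10 (1.56 ± 0.378 TPM) with no overlap. The 9 genes summed to between 664 and 860 TPM in Het livers, to between 262 and 446 TPM in KO females and to between 501 and 535 TPM in KO males. Akr1c6 made up 46.16% to 52.98% of that sum in Het livers and 12.48% to 40.13% in KO livers. The lower limit was KO_F_108, and without it the KO share started at 26.13% and the KO female sum at 380 TPM.

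**Figure D2:**
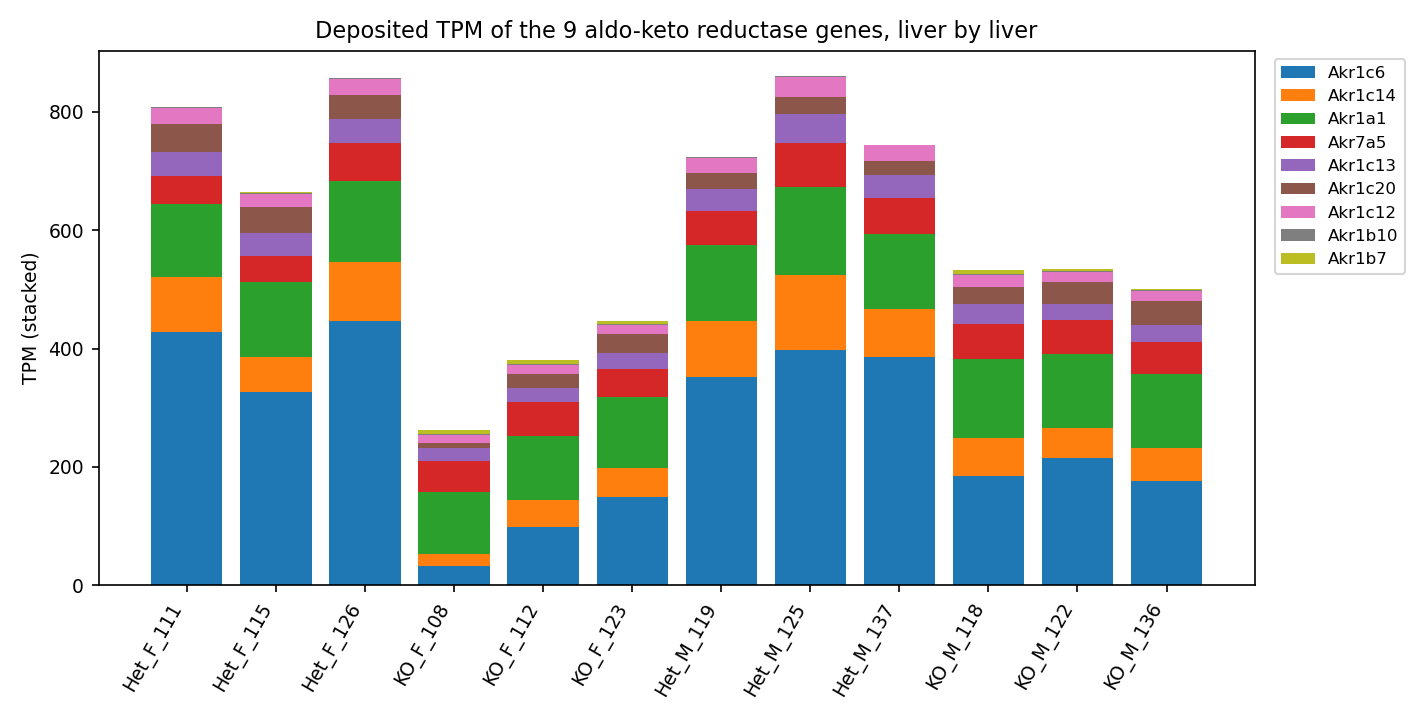
Deposited TPM of the 9 genes stacked for each of the 12 livers, with one bar per liver named by group and mouse number. Het bars reach 664 to 860 TPM and KO bars 262 to 535 TPM, and the Akr1c6 segment at the base shows the largest loss.

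The main question was how KO livers differed from Het livers. Averaged over the sexes, 4 of the 9 genes fell, 2 rose and 3 were not called (edgeR quasi-likelihood F test, Benjamini-Hochberg adjusted p under 0.05 over all genes). Akr1c6, Akr1c14, Akr1c12 and Akr1c13 fell, and Akr1b7 and Akr1b10 rose. Of all genes tested, 10.2% were called lower and 12.2% higher in the same comparison. The median log2 fold change of the 9 genes was -0.31, beside 0.0175 over all genes. In bulk liver, fewer cells of a type and less RNA per cell cannot be told apart.

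**Figure D3:**
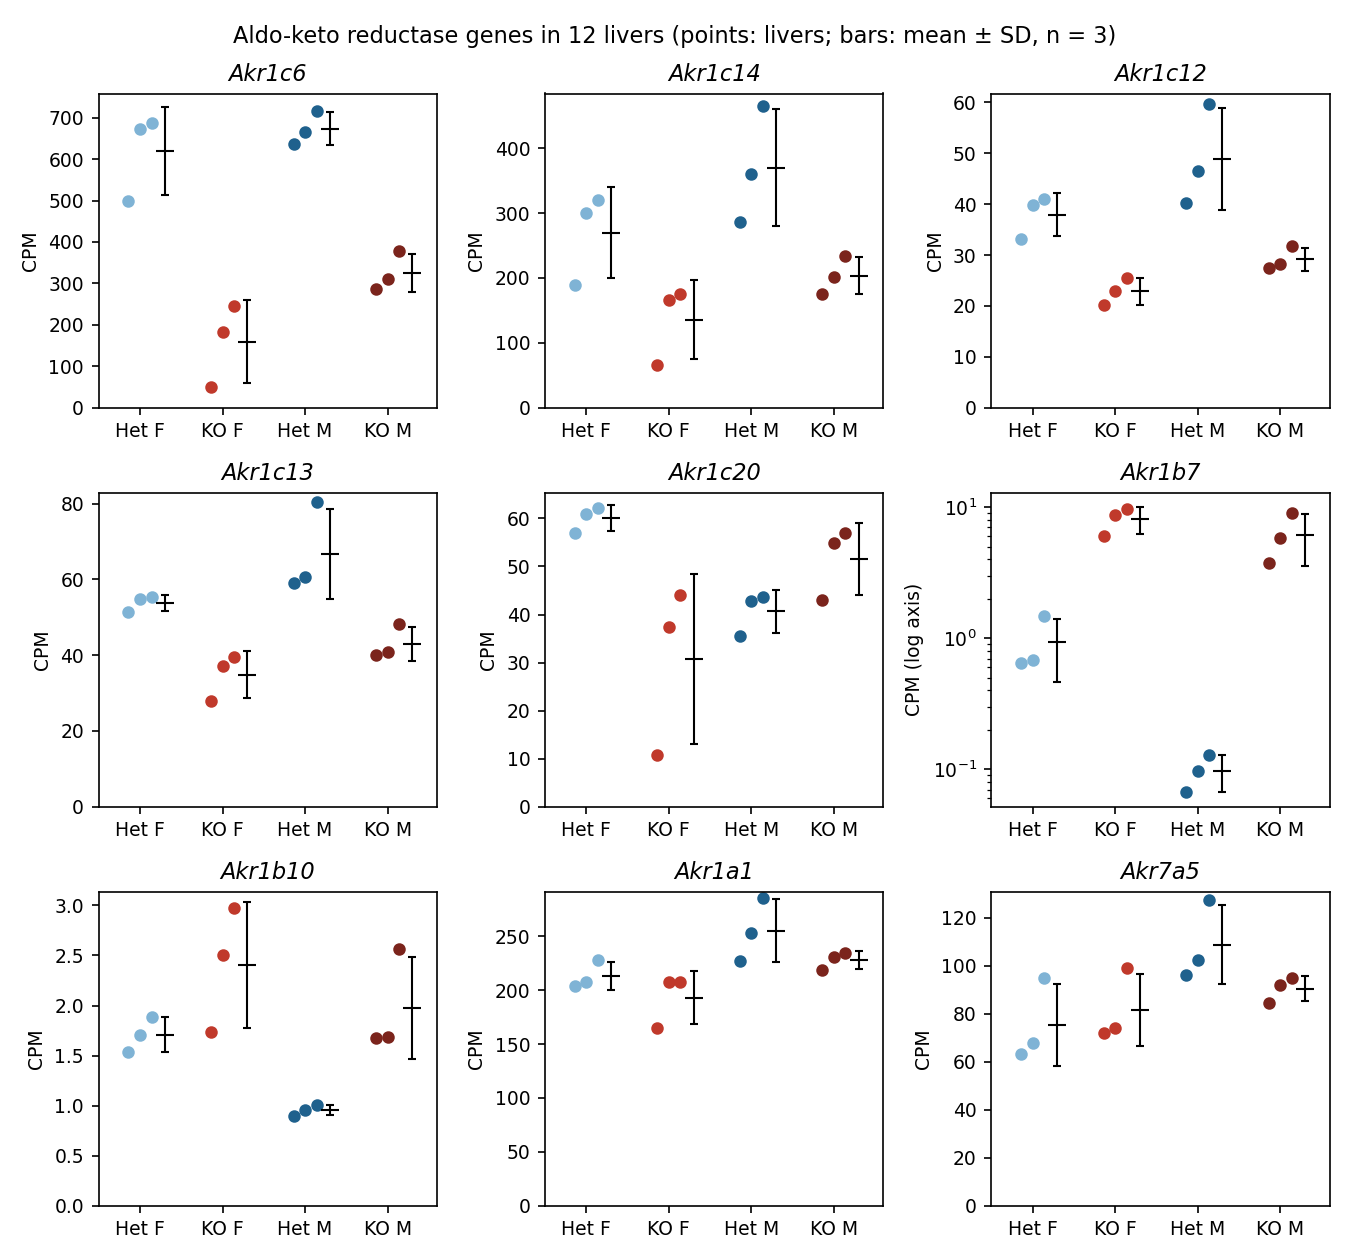
Normalised counts (CPM) of the 9 genes in each liver, grouped as Het and KO females (F) and males (M), with points for livers and bars for the mean ± SD (n = 3). Only the Akr1b7 axis is logarithmic, and there the KO livers lie between 3.74 and 9.69 CPM and the Het livers between 0.0667 and 1.48 CPM.

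Akr1c6 carried the largest fall. It stood at 672, 498 and 688 CPM in the Het females and at 666, 716 and 637 CPM in the Het males. It stood at 49.2, 183 and 246 CPM in the KO females and at 310, 377 and 287 CPM in the KO males. No KO liver reached any Het liver, the KO females lay below the KO males, and KO_F_108 was the lowest of all. Over both sexes the log2 fold change was -1.505 (SE 0.299, 95% interval -2.16 to -0.85, adjusted p = 0.00582), a 2.84-fold lower level. In females it was -1.96 (SE 0.429, adjusted p = 0.0196), and the call was lost with only the 6 female libraries (adjusted p = 0.0926). In males it was -1.05 (SE 0.418), and the adjusted p of 0.154 did not pass. With only the 6 male libraries the male value passed (-1.055, adjusted p = 0.00481). Without KO_F_108, which takes no part in the male comparison except through the shared spread, the male value was -1.06 with an adjusted p of 0.00397 and the female value -1.55 with an adjusted p of 0.00293. The difference between the sexes was 0.91 (SE 0.587, 95% interval -0.38 to 2.20, adjusted p = 0.653).

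Akr1c14, the 3alpha-hydroxysteroid dehydrogenase that reduces dihydrotestosterone, stood at 300, 189 and 320 CPM in the Het females and at 360, 464 and 285 CPM in the Het males. It stood at 65.6, 176 and 165 CPM in the KO females and at 234, 176 and 202 CPM in the KO males. Within each sex the KO livers lay below the Het livers, although the KO males overlapped Het_F_115. The log2 fold change over both sexes was -0.93 (SE 0.237, adjusted p = 0.0175). Within females (-0.99, adjusted p = 0.0774) and within males (-0.86, adjusted p = 0.144) it did not pass, although the female value passed by DESeq2 (adjusted p = 0.0328) and by limma on TPM. With KO_F_108 left out, the value over both sexes was -0.77 (adjusted p = 0.00989) and the male value passed (-0.87, adjusted p = 0.0321). The male value also passed with only the 6 male libraries (-0.87, adjusted p = 0.0325).

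Akr1c12 and Akr1c13, the near-identical copies, encode dehydrogenases that also act on steroids and other alcohols. Akr1c12 stood at 39.8, 33.1 and 41.0 CPM in the Het females and at 46.5, 59.8 and 40.3 CPM in the Het males. In KO livers it was at 20.2, 25.5 and 22.9 CPM in the females and at 31.7, 28.2 and 27.5 CPM in the males. Every KO liver was below every Het liver. Akr1c12 fell by 0.74 on the log2 scale (SE 0.111, adjusted p = 0.00107), with -0.73 in females (adjusted p = 0.0165) and -0.75 in males (adjusted p = 0.0162).

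Akr1c13 stood at 54.8, 51.4 and 55.2 CPM in the Het females and at 60.7, 80.3 and 59.0 CPM in the Het males. In KO livers it was at 27.8, 37.2 and 39.6 CPM in the females and at 48.1, 40.8 and 39.98 CPM in the males. Again no KO liver reached a Het liver. Akr1c13 fell by 0.63 on the log2 scale (SE 0.112, adjusted p = 0.00290), with -0.62 in females (adjusted p = 0.0304) and -0.63 in males (adjusted p = 0.0330). Both calls within a sex were lost when single livers were left out, whereas the calls over both sexes were not. Leaving out single livers gave -0.81 to -0.66 for Akr1c12 and -0.69 to -0.56 for Akr1c13 over both sexes, and without KO_F_108 the female values were -0.66 (adjusted p = 0.0541) and -0.50 (adjusted p = 0.0882). For Akr1c12 the difference of the KO effect between the sexes was -0.02 (95% interval -0.51 to 0.47). For Akr1c13 it was -0.01 (95% interval -0.51 to 0.49).

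The sum of Akr1c12 and Akr1c13, which does not depend on how reads were split between them, was 91.8 ± 6.33 CPM in the Het females and 116 ± 21.6 CPM in the Het males (SD, n = 3). It was 57.7 ± 8.41 CPM in the KO females and 72.1 ± 6.74 CPM in the KO males. The KO mean was 62.9% of the Het mean in females and 62.4% in males. Akr1c12 held between 36.6% and 43.4% of the sum in every liver.

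Markers of other liver cells were set beside these falls. Over both sexes 10.2% of all genes were called lower and 12.2% higher. Of 8 stellate cell markers 2 were called lower and none higher over both sexes, with sums of 248 to 452 CPM in Het livers and 126.2 to 272 CPM in KO livers. Of 6 endothelial markers 2 were called lower and none higher, with sums of 161 to 304 CPM in Het livers and 126.2 to 223 CPM in KO livers. Of 12 hepatocyte markers 1 was called higher and 2 lower. Their sums, led by Alb, ran from 78299 to 100520 CPM in Het livers and from 94875.5 to 155480 CPM in KO livers. The part of these cells in the Akr1c levels was not tested. Among the other lists, 1 of 7 cholangiocyte markers tested, 1 of 3 neutrophil markers and 0 of 7 lymphocyte markers were called higher, with none lower. The pancreas and intestine lists each had 1 higher and 1 lower, and the 1 adipose marker tested was not called.

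The regions before the start of these genes were read because the copies moved together. RefSeq (GRCm38.p6) gave windows from 250 bases before to 50 bases after the start for 8 of the 9 genes, and each window occurred once, unchanged, in GRCm39. No entry matched Akr1c20. The Akr1c12 and Akr1c13 windows were identical at 284 of 304 aligned positions (93.4%), whereas no other pair of the 8 windows exceeded 49.5%. Bases -250 to -51 are shown for these copies and for Akr1c6, the gene with the largest fall, and each ends before the start that GENCODE M39 gives. They lie at chr13:4279450-4279649 on the minus strand (Akr1c12), chr13:4190937-4191136 on the plus strand (Akr1c13) and chr13:4434093-4434292 on the plus strand (Akr1c6) of GRCm38.p6. Capitals mark a match to TGANNNNGC, the core of the antioxidant response element, in Akr1c12 and Akr1c13. In Akr1c6 they mark TATAAA, the letters of a TATA box, at -164 from the RefSeq start.
Akr1c12: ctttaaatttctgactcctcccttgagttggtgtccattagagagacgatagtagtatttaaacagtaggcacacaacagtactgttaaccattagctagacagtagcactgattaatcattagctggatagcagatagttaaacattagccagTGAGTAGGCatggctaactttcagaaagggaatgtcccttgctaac
Akr1c13: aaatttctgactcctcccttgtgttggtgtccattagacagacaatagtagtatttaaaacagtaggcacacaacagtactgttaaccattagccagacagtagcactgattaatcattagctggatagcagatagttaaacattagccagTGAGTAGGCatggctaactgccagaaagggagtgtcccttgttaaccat
Akr1c6: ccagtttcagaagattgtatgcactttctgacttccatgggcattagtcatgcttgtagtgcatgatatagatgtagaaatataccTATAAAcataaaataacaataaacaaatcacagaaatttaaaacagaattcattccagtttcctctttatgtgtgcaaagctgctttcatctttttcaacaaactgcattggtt

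Both strands of the whole windows were searched for 4 sets of letters that do not overlap in any of them. TGANNNNGC was found at -96 in Akr1c12 and at -99 in Akr1c13, and 41.3% of 32851 RefSeq promoters held it. TATAAA was found at -164 in Akr1c6 and in 13.6% of promoters. AGGTCA, the core letters bound by many nuclear receptors, was found in Akr1b10 (-215), Akr1b7 (-248) and Akr7a5 (-59) and in 16.3% of promoters. TTCNNNGAA, a STAT site, was found in none of the 8 windows and in 8.3% of promoters. The Akr1b7 window also held TGANNNNGC at 20 bases past the start, but its RefSeq start lies 276 bases inside the GENCODE gene. The whole Akr1b7 window, its AGGTCA match included, therefore lies inside that gene and not before it. These matches are descriptions of letters in a window.

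Akr1c20, the close relative of Akr1c6, was not called over both sexes (-0.31, SE 0.264, 95% interval -0.89 to 0.27, adjusted p = 0.431). It stood at 62.2, 61.0 and 57.0 CPM in the Het females and at 10.7, 37.5 and 44.1 CPM in the KO females. In males it stood at 42.8, 43.7 and 35.5 CPM in the Het livers and at 43.0, 55.0 and 56.9 CPM in the KO livers. The KO females were all below the Het females, with KO_F_108 the lowest, while the male ranges overlapped. The log2 difference was -0.96 in females (adjusted p = 0.119) and 0.34 in males (adjusted p = 0.628). The test of the difference between the sexes gave 1.31 (SE 0.531, 95% interval 0.14 to 2.48) with an unadjusted p of 0.0316 and an adjusted p of 0.494. Without KO_F_108 that difference was 0.91 (adjusted p = 0.243) and the female value -0.57 (adjusted p = 0.0578).

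Akr1b7, an aldose reductase-like protein best known from the vas deferens and adrenal cortex and as a target of bile acid and xenobiotic receptors, showed the largest rise. It stood at 0.676, 1.48 and 0.648 CPM in the Het females and at 8.71, 9.69 and 5.98 CPM in the KO females. In males it stood at 0.0667, 0.0976 and 0.128 CPM in the Het livers and at 8.94, 5.83 and 3.74 CPM in the KO livers. Every KO liver was above every Het liver, and the Het males were below the Het females. The log2 fold change was 4.20 over both sexes (SE 0.302, adjusted p = 5.95e-06), 3.05 in females (SE 0.377, adjusted p = 0.00144) and 5.34 in males (SE 0.470, adjusted p = 8.61e-05).

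The Het males held 2, 3 and 4 counts of Akr1b7, so the fitted male value depends on the prior count of 2. Summed over the group, 9 counts in the Het males stood against 724 in the KO males, a 65.5-fold ratio of the rates with a 95% interval of 34.3 to 143.9. In females, where the KO livers held 817 counts, the ratio was 8.66 (7.10 to 10.65). These intervals cover counting error only. The KO effect was 2.29 larger in males on the log2 scale (SE 0.554, unadjusted p = 0.00130), and the adjusted p of 0.244 did not pass.

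The adrenal cortex was checked because Akr1b7 is abundant there. Of 7 adrenal markers only Cyp21a1 and Star could be tested, with neither called over both sexes. In males Cyp21a1 was called lower in KO livers (-2.69, SE 0.502, adjusted p = 0.00855), and Star was not called. Cyp21a1 was at 0 counts in every Het female, and in females neither gene was called (0.61 for Cyp21a1, adjusted p = 0.298). The list summed to between 1.73 and 4.004 CPM in Het livers and to between 1.61 and 2.98 CPM in KO livers. Mc2r, the corticotropin receptor, was at 0 in every liver. The part of adrenal tissue in the Akr1b7 level was not tested. The 6 kidney markers summed to at most 0.0864 CPM in any liver. The 5 intestine markers in the table, led by Fabp2, summed to between 35.1 and 58.5 CPM in Het livers and to between 11.4 and 30.0 CPM in KO livers.

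Akr1b10, the neighbour of Akr1b7, was present at a few CPM. It stood at 1.89, 1.71 and 1.53 CPM in the Het females and at 0.901, 1.008 and 0.960 CPM in the Het males. In KO livers it was at 1.74, 2.51 and 2.98 CPM in the females and at 1.68, 2.56 and 1.68 CPM in the males. The female ranges overlapped and the male ranges did not. The log2 fold change was 0.74 over both sexes (SE 0.181, adjusted p = 0.0133) and 1.001 in males (SE 0.263, adjusted p = 0.0398), while the female value of 0.48 did not pass (adjusted p = 0.221). The call in males was lost when any one male liver was left out. Of 6 macrophage markers 2 were called higher over both sexes, 1 in males and 0 in females, and none lower. The shares of all genes called higher were 12.2% over both sexes, 4.47% in males and 5.94% in females. Their summed level ran from 87.0 to 118.3 CPM in Het males and from 103 to 294 CPM in KO males. In females it ran from 177 to 205 CPM in Het livers and from 173 to 305 CPM in KO livers. The part of these cells in the Akr1b10 level was not tested.

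Akr1a1 and Akr7a5, the general aldehyde reductase and the aldehyde reductase of the AKR7 group, were not called in any comparison. Akr1a1 stood between 204 and 286 CPM in Het livers and between 165 and 234 CPM in KO livers, with a log2 difference of -0.15 (95% interval -0.36 to 0.05, adjusted p = 0.267). Akr7a5 stood between 63.2 and 127 CPM in Het livers and between 72.1 and 98.9 CPM in KO livers, with a log2 difference of -0.07 (95% interval -0.35 to 0.20, adjusted p = 0.716). Over both sexes the ranges of both genes overlapped. Among males every KO liver was below every Het liver for Akr7a5, at a log2 difference of -0.27 that did not pass (adjusted p = 0.409).

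**Figure D4:**
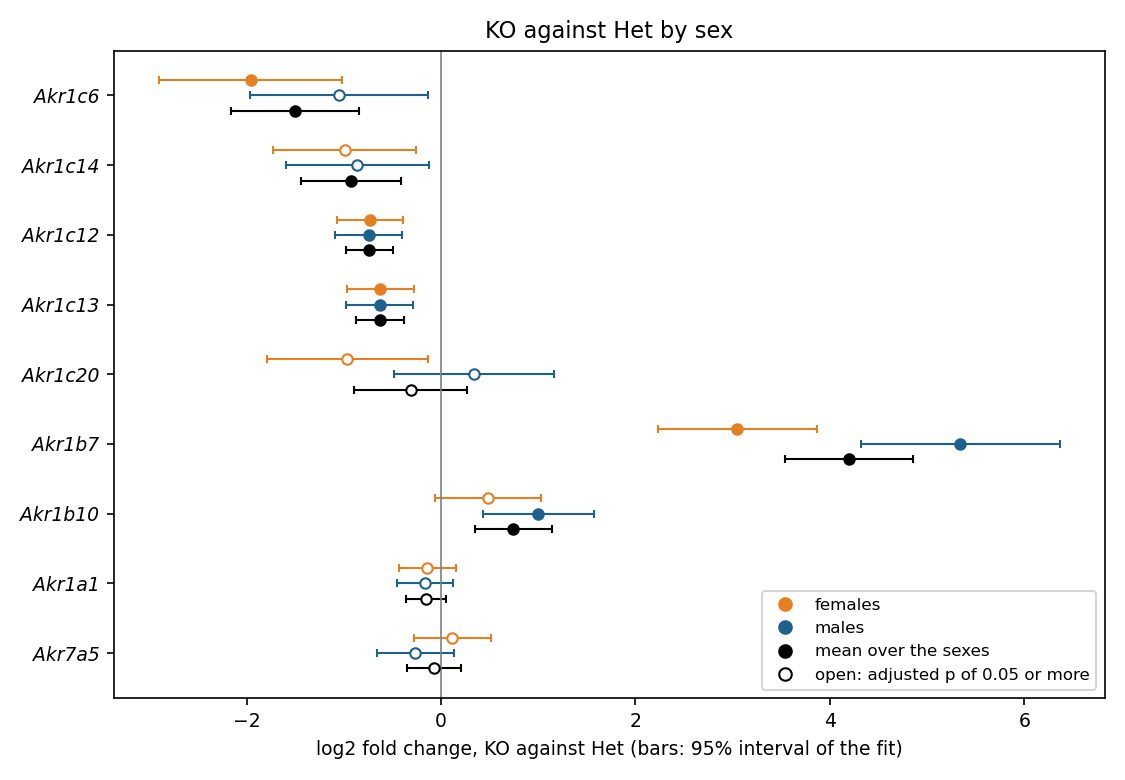
Log2 fold change of KO against Het for the 9 genes in females, males and as the mean over the sexes, with 95% intervals of the fit and open symbols where the adjusted p was 0.05 or more. Akr1b7 lies at 3.05, 5.34 and 4.20, and Akr1c12 and Akr1c13 have nearly the same value in both sexes.

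Sex by sex, 3 genes fell (Akr1c6, Akr1c12 and Akr1c13) and 1 rose (Akr1b7) in females, beside 5.1% of all genes called lower and 5.94% called higher. In males 2 fell (Akr1c12 and Akr1c13) and 2 rose (Akr1b7 and Akr1b10), beside 2.98% called lower and 4.47% higher. The KO effect differed between the sexes for 0 of the 9 genes by edgeR, with 0.0465% of all genes called. At an unadjusted p under 0.05 Akr1b7 and Akr1c20 passed, which is 2 of 9, beside 9.28% of all genes at that threshold. DESeq2 called 1, Akr1b7 (2.85, adjusted p = 0.0196), beside 0.975% of the genes to which it gave an adjusted p.

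Males and females were also compared within a genotype. In Het livers 1 of the 9 genes was called, Akr1b7, at -2.68 for males against females (SE 0.476, adjusted p = 0.0188), beside 0.92% of all genes. By summed counts, 9 of them in the Het males, the level in the Het females was 9.46-fold higher (4.81 to 21.2, counting error only). The call was lost without Het_F_115 (adjusted p = 0.0536) and when any one Het male was left out. Before adjustment Akr1b10 (-0.80, unadjusted p = 0.0102), Akr7a5 (0.53, unadjusted p = 0.0127) and Akr1c12 (0.36, unadjusted p = 0.0376) passed as well in Het livers. At that threshold 2129 of 19350 genes passed. In KO livers none of the 9 was called by edgeR, beside 0.0517% of all genes, or by DESeq2, beside 2.05%. There 2 genes, Akr1c6 (1.03, unadjusted p = 0.0316) and Akr1c12 (0.35, unadjusted p = 0.0456), passed before adjustment, beside 12.6% of all genes.

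The neighbours of these genes in the family did not all move with them. Of 11 other aldo-keto reductase genes, 9 could be tested, of which 2 rose, 1 fell and 6 were not called. Of all genes, 12.2% were called higher and 10.2% lower. Akr1c18, the 20alpha-hydroxysteroid dehydrogenase that inactivates progesterone, lies between Akr1c14 and Akr1c13 and rose by 2.90 on the log2 scale (SE 0.389, adjusted p = 4.41e-04). It reached at most 0.108 CPM in Het livers and stood between 0.362 and 1.70 CPM in KO livers. The ratio of its counts was 13.6 (6.89 to 30.6) in females and 11.3 (4.96 to 31.6) in males, by counting error only. Akr1c19, which lies between Akr1c13 and Akr1c12, was not called (-0.58, adjusted p = 0.133). Akr1c21 and Akr1cl had too few counts to test.

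Akr1b1, aldose reductase itself, stood between 3.74 and 8.06 CPM in Het livers and between 11.1 and 14.03 CPM in KO livers. It rose by 0.88 (SE 0.155, adjusted p = 0.00261), while Akr1b8, which lies between it and Akr1b10, differed by -0.01 (adjusted p = 0.978). Akr1e1, the anhydrofructose reductase gene next to the Akr1c cluster, stood between 23.2 and 28.9 CPM in Het livers and between 14.04 and 20.2 CPM in KO livers, a fall of 0.44 (SE 0.0922, adjusted p = 0.00677). Akr1d1, the 5beta-reductase of bile acid synthesis, was not called (0.30, adjusted p = 0.192). Of the potassium channel beta subunits, which share the fold, Kcnab1 (-0.06), Kcnab2 (0.61) and Kcnab3 (0.37) were not called.

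The other enzymes that share substrates with this family were listed by function, with earlier results of these data known. Beside each list below, 10.2% of all genes were called lower and 12.2% higher over both sexes. Of 17 genes of hydroxysteroid metabolism, 11 fell, 1 rose and 5 were not called. Their median log2 fold change was -0.76, beside 0.0175 over all genes. The falls included Cyp7b1, the oxysterol 7alpha-hydroxylase (-2.22, SE 0.232, adjusted p = 1.61e-04), Hsd3b5, a male-biased 3-ketosteroid reductase (-5.51, SE 0.634, adjusted p = 4.55e-04), and Hsd17b12 (-0.93, SE 0.138, adjusted p = 9.61e-04). Hsd3b5 ran from 0.0255 to 189 CPM among Het livers and from 0.0310 to 0.754 CPM among KO livers, so its pooled ranges overlapped. In males its log2 fold change was -8.35 (adjusted p = 8.76e-04), with every KO liver below every Het liver. In females it was -2.67, which did not pass (adjusted p = 0.0874), and the ranges overlapped.

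Of 16 other carbonyl reductases, 4 rose, 6 fell and 6 were not called. Nqo1, the quinone reductase (2.21, adjusted p = 7.10e-07), Ptgr1, which acts on leukotrienes and alkenals (1.13, adjusted p = 0.00122), and Cbr1 (0.99, adjusted p = 5.09e-04) were among those that rose. Nqo1 stood between 4.57 and 11.6 CPM in Het livers and between 25.7 and 40.9 CPM in KO livers. Of 20 aldehyde and alcohol dehydrogenases tested, 2 rose, Aldh3b1 (1.44, adjusted p = 0.00132) and Adh7 (1.503, adjusted p = 0.00134), 7 fell, Adh4 among them (-1.0003, adjusted p = 0.0119), and 11 were not called.

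Around AKR1A1, 2 of 11 genes of glucuronate and ascorbate synthesis rose, 3 fell and 6 were not called. Miox, the inositol oxygenase that makes glucuronate, rose by 3.08 (SE 0.385, adjusted p = 1.32e-04) from at most 0.151 CPM in Het livers to between 0.408 and 1.18 CPM in KO livers. Ugt1a1 rose (0.82, adjusted p = 0.00447), and Cryl1, the gulonate dehydrogenase, fell (-0.49, adjusted p = 0.00722). Of 14 rows for NADPH supply, 1 rose, G6pdx of the pentose phosphate pathway (0.78, adjusted p = 0.00216). Another 3 fell, among them malic enzyme Me1 (-1.67, adjusted p = 2.19e-04) and Nadk2 (-0.56, adjusted p = 0.0115), and 10 were not called.

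Of 20 known NRF2 targets, 10 rose, 1 fell and 9 were not called. Of all genes, 12.2% were called higher and 10.2% lower. The median log2 fold change of the list was 0.32, beside 0.0175 over all genes. In females 6 of the list were called higher, beside 5.94% of all genes, and in males 5, beside 4.47%. Beside Nqo1, Gsta1 (3.03, SE 0.254, adjusted p = 3.22e-05) and Abcc4 (1.40, SE 0.168, adjusted p = 3.15e-04) had the smallest p. Of 26 regulators, 3 rose and 8 fell. Cux2, the female-biased repressor of male-biased liver genes, rose (3.50, SE 0.371, adjusted p = 2.83e-04), while Cebpa (-1.10, SE 0.149, adjusted p = 5.86e-04) and the bile acid receptor gene Nr1h4 (-1.03, SE 0.159, adjusted p = 0.00127) fell. Cux2 ran from 0.480 to 41.7 CPM in Het livers and from 20.3 to 119.1 CPM in KO livers. In males its log2 fold change was 5.65 (adjusted p = 6.99e-04), with every KO liver above every Het liver. In females it was 1.36, which did not pass (adjusted p = 0.0859), and the ranges overlapped. Nr1h4 stood between 92.1 and 112.3 CPM in Het livers and between 25.2 and 61.5 CPM in KO livers.

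The genes whose pattern over the 12 livers was most like each aldo-keto reductase were ranked by the root mean square difference of centred log2 CPM, where 0 is an identical pattern. For Akr1c13 the nearest gene was Akr1c12, at 0.106, followed by Acaa1a at 0.106. For Akr1c12 they were Syne2 (0.0895) and Rbbp4 (0.103), and for Akr1c14 they were 0610031O16Rik (0.134) and Cat, catalase (0.216). Lrit1 (0.207) and Fads2 (0.230) were nearest to Akr1c6, Rxrg (0.163) and Mmp19 (0.230) to Akr1c20. Akr1b7 was farther from its nearest genes, Orm2, an acute phase protein (0.778), and Chil3 (0.801), beside a spread of its own of 2.33. Soat1 (0.182) and Itgal (0.188) were nearest to Akr1b10, Elob (0.0636) and Fis1 (0.0656) to Akr1a1, and Mif (0.117) and Prdx5 (0.120) to Akr7a5. The spreads of these members were 0.516 for Akr1b10, 0.184 for Akr1a1 and 0.278 for Akr7a5. Such distances shrink with a member's own spread, so a small distance need not mean a closer match.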

How the data were processed

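Total RNA of 12 mouse livers was depleted of ribosomal RNA and sequenced as stranded libraries. Per the labels, reads were aligned with STAR 2.7.9a to GRCm39 and quantified with Salmon 1.10.1, and the authors deposited estimated counts per gene, which are raw but not all whole (12.0% of values), together with length-scaled and scaled estimated counts and TPM. Here genes with at least 5 estimated counts, scaled to the median library, in at least 3 livers were kept and rounded to whole counts. They were fitted in edgeR 4.0.16 (R 4.3.3) with the quasi-likelihood F test (robust, prior count 2, TMM factors 0.885 to 1.06) with a mean for each of 4 groups of 3. All genes entered the Benjamini-Hochberg adjustment, and CPM are TMM-scaled. Livers of a group differed by more than counting noise, with chi-square per degree of freedom from 86.8 to 226. TPM of the authors served for levels between genes and for limma 3.58.1 alternatives (log2 TPM + 1 or + 0.1). DESeq2 1.42.0 was a further alternative. On simulated data for KO against Het, 51.5% of 200 genes changed by a log2 fold of 1 (18986 genes) and 78.5% of those changed by 2 (18958 genes) were recovered. Far more genes, 4330, were called in the livers, and the adjustment depends on that number. These shares are therefore not the recovery rate of the real comparison. Coordinates and coding sequences come from GENCODE M39 and were aligned with Biopython 1.88. The 9 genes and all lists were chosen with earlier results of these data known. Named beside them are all other family genes, the 3 genes of smallest p in each functional list and the 2 genes nearest in pattern to each. Proteins were not analysed here.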

Additional observations from a re-analysis of the deposited data

Results flagged for a closer look

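Within the 6 livers of a genotype, the highest and the lowest value of each gene were checked for their distance from the rest, and 2 stood apart. Akr1c6 was lowest in Het_F_115, at 498 CPM, with a gap to the next Het liver of 0.64 of the whole Het range. Akr1c13 was highest in Het_M_125, at 80.31 CPM, with a gap of 0.677 of the Het range. Of 18 groups of 6 looked at, chance alone marks about 1 in 20. Both livers lay on the Het side of every KO liver for these genes. The calls of both genes over both sexes held without either liver.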

How the results depend on the processing

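Over both sexes the 6 calls among the 9 genes held under each alternative that could test them and whichever single liver was left out. With at least 10 counts in every liver 5 were called, since Akr1b7 could not be tested. Of 1218 values of the single genes under alternatives, 1176 stayed on their side of the threshold, 34 lost and 8 gained a call, and none called turned its direction. Calls within a sex were lost more often. In females, 4 calls became 1 with only the 6 female libraries (Akr1b7), 5 by DESeq2 and by both limma fits (Akr1c14 added, adjusted p from 0.0328 to 0.0379) and 3 with no filter on low counts (Akr1c6 lost, 0.0502), and ranged from 2 to 4 with single livers left out, the 2 being without KO_F_108, where Akr1c12 (adjusted p = 0.0541) and Akr1c13 (0.0882) were lost. Akr1c13 was also lost in females without Het_F_111 (0.0700), Het_F_115 (0.0518), Het_F_126 (0.0678) or KO_F_112 (0.0576). In males, 4 calls ranged from 1 to 6 with single livers left out and from 3 to 5 under the other alternatives. With only the 6 male libraries Akr1c6 (0.00481) and Akr1c14 (0.0325) gained a call and Akr1b10 lost it (0.0589). With no filter on low counts Akr1b10 was lost too (0.0538), and with limma on log2(TPM + 1) Akr1c13 was lost (0.052). Akr1c13 in males was lost without Het_M_119 (0.0560), Het_M_125 (0.126), KO_M_118 (0.0576), KO_M_122 (0.0931) or KO_M_136 (0.105), and Akr1c12 without Het_M_125 (0.0630) or KO_M_136 (0.0581). Akr1b10 in males was lost when any one male liver was left out (adjusted p from 0.0588 to 0.117) and without Het_F_111 (0.0541), Het_F_115 (0.0508) or KO_F_112 (0.0550). Without KO_F_108, 6 were called in males, with Akr1c6 and Akr1c14 added. The difference between the sexes, with 0 calls, had 1 by DESeq2 (Akr1b7). Males against females in Het livers, with 1 call (Akr1b7), had 0 with at least 10 counts in every liver, 0 with limma on log2(TPM + 1), and from 0 to 1 with single livers left out. Other scalings moved the median log2 fold change of all genes by at most 0.0025, and any alternative by at most 0.0203. The cause of these changes was not tested. No paired analysis was possible because the mice carry numbers that are not shared between groups. Depth limits Akr1b7, with 2 to 4 counts in each Het male, and Akr1c18.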
